A study of Rattus norvegicus with 8 samples.

Results

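The genes described here are the enzymes that build cholesterol, from the joining of acetyl units to the last reduction of the sterol ring, with the proteins that sense, move and store sterol. They were chosen by name: 28 genes were listed, and 25 of them had a probe set of their own on the array, among 14216 named genes in all. Hmgcs1, Npc1 and Soat2 are not analysed here. Each gene is given by 1 probe set, its brightest as a mean of the 8 arrays. Liver RNA came from male Sprague-Dawley rats weighing 180 to 200 g, which the labels place 8 h after injection. Vehicle rats were given saline by both routes. Dexamethasone, a synthetic glucocorticoid, was given into muscle at 1.5 mg/kg, with saline into the peritoneum. AICAR, a nucleoside that cells turn into an activator of the energy-sensing kinase AMPK, was given into the peritoneum at 0.7 g/kg, with saline into muscle. The last group was given both agents. Every group held 2 arrays, and this small number limits the precision of all values. Nothing in the labels ties the arrays of a group to separate animals, so p-values cover the spread between arrays alone, which may be technical.

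Cholesterol is made from acetyl-CoA by way of mevalonate, isoprene units, squalene and lanosterol, and the liver is a main site of this synthesis. Most genes of the route are switched on together by the transcription factor SREBP-2, the product of Srebf2. When sterols are plentiful, the escort protein SCAP and the anchor proteins INSIG-1 and INSIG-2 hold SREBP-2 in the endoplasmic reticulum. When sterols run low, SCAP carries it to the Golgi, where it is cut and released to the nucleus. Insig1 is itself a target of this factor, whereas Insig2 in liver is known to respond to feeding and insulin. AMPK is known to inhibit the pathway's reductase enzyme by phosphorylation, a step that transcript levels do not show.

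After dexamethasone 17 of 25 genes were lower than in vehicle and 2 were higher, at an adjusted p under 0.05 in limma, against 9.77% of all probe sets lower and 8.67% higher. Their median was -0.45 on the log2 scale, beside 0.00 over all probe sets. After AICAR 17 genes were higher and none was lower, against 5.45% higher and 7.47% lower among all probe sets, with a median of 0.46 beside 0.01. At an unadjusted p under 0.05 the limma fit gave 1 gene lower after AICAR. That gene was Insig2, whose other probe set was called lower, as given below. After both agents 9 genes were above vehicle, 5 were below it and 11 did not pass, against 13.3% higher and 13.6% lower among all probe sets. Of the 19 synthesis enzymes measured, 9 were higher and 2 lower (Ebp and Tm7sf2), and the other genes that were lower were Scap, Insig2 and Npc2. All 14216 named genes, each by its brightest probe set as here, form a closer background. Of these, 1190 were higher and 2033 lower after dexamethasone, 885 and 1274 after AICAR, and 2264 and 2622 after both. The 2 sterol genes higher after dexamethasone and the 5 lower after both are shares close to those. These comparisons share the vehicle arrays, so their values are set side by side and no likeness between them is drawn. Values after ± are standard errors of log2 differences from limma, and levels are log2 values from RMA.

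**Figure D1:**
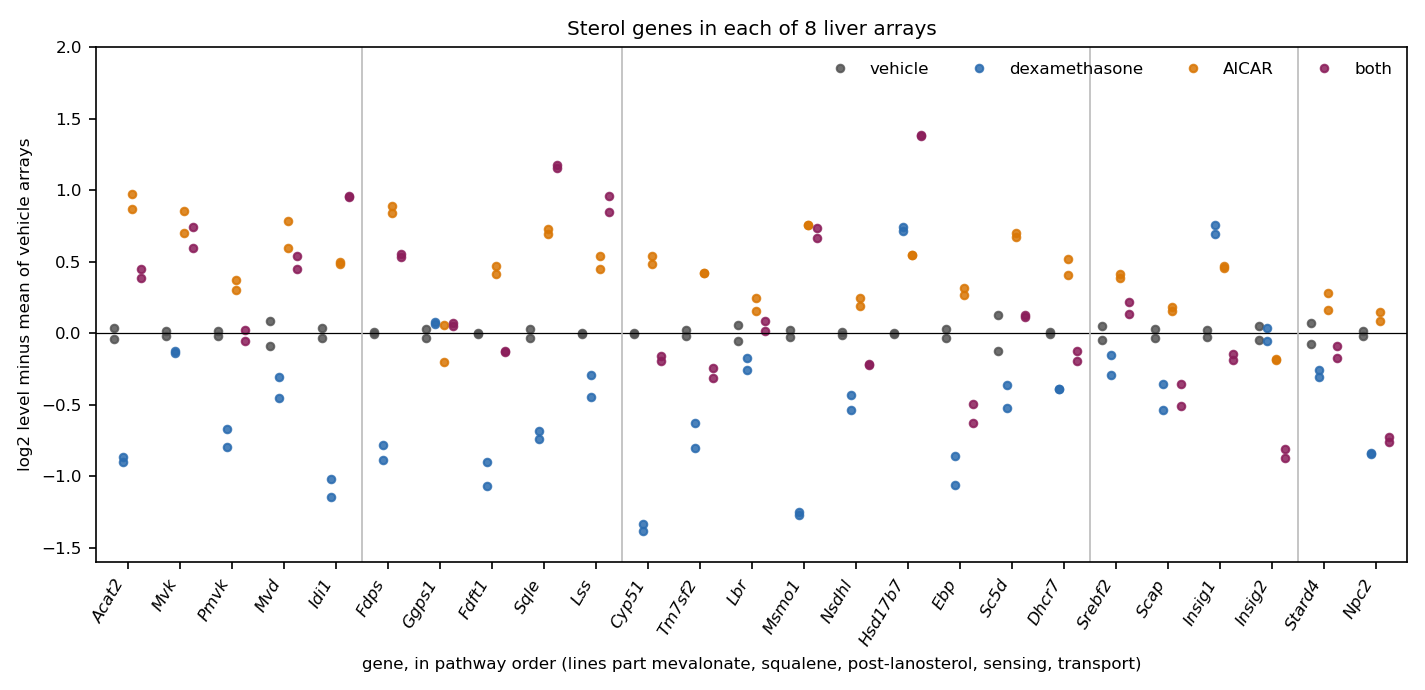
Each point is the level of 1 gene on 1 array, as a log2 difference from the mean of the vehicle arrays, with genes in pathway order along the x axis and groups by colour. Dexamethasone arrays lie below 0 for most genes and AICAR arrays above it, while arrays with both agents range from -0.84 (Insig2) to 1.38 (Hsd17b7) as group means.

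Since many of the genes moved together, the 250 bases before their RefSeq starts (GRCr8) were searched on both strands for 4 short motifs. A window was found by gene ID for 21 of the 25 genes. The NF-Y box CCAAT is bound by a factor that often works beside SREBP-2. It was in 17 of 21 windows (81.0%), against 34% of 33469 windows in the table, and 9 genes held at least 2 boxes. All windows of the table outnumber the 14216 named genes of the array, so the 2 sets are unlike. A share over the array's genes alone was not computed. The sterol regulatory element core TCACNCCAC was in none of the 21 (0.974% of all windows), and neither was the E-box form TCACNTGA (3.34%). With shares this low over all windows, the lack of a match in 21 says little. Other spellings of these elements were not searched. AGAACA, a core of the glucocorticoid response element, was in the windows of Hsd17b7 and Scap (2 of 21, or 9.5%, against 17.5% of all). No match overlapped another. A match describes the letters of a window and is no evidence of binding. The windows of 4 genes are shown because their levels separated the groups in different ways, described below; they were chosen after their values were seen. Capitals mark CCAAT or its reverse complement ATTGG, and AGAACA at the start of the Hsd17b7 window.
Idi1, chr17:66547525-66547774, minus strand: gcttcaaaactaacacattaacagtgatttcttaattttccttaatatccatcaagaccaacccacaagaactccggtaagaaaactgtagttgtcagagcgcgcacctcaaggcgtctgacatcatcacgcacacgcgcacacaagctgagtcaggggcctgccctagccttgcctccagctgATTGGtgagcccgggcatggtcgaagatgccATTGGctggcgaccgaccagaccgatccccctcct
Msmo1, chr16:29746863-29747112, plus strand: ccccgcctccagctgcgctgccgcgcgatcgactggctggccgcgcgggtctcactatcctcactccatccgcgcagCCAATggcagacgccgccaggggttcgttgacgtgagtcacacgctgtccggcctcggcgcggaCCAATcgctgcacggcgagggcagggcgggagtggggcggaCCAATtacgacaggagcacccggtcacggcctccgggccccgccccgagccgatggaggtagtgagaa
Hsd17b7, chr13:84722755-84723004, minus strand: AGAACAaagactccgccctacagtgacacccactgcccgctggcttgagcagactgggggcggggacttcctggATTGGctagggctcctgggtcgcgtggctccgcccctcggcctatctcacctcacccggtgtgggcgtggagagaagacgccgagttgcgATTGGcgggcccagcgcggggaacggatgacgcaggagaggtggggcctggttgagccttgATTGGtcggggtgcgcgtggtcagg
Insig1, chr4:8057770-8058019, minus strand: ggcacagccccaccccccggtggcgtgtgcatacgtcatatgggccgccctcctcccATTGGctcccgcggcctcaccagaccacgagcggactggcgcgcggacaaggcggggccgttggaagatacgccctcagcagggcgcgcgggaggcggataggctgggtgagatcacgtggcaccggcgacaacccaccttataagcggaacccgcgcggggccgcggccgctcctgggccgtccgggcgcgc
The Idi1 window has 2 boxes, with first bases at -66 and -35 from the start, and Msmo1 and Hsd17b7 have 3 boxes each. Insig1 has 1, farther away, at -193.

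The first steps make mevalonate and activate it. Idi1, whose enzyme interconverts the isoprene building blocks, read 10.55 and 10.48 in vehicle, 9.49 and 9.37 after dexamethasone, 10.996 and 11.009 after AICAR, and 11.46 and 11.47 after both. The groups did not overlap, and the arrays with both agents were the highest. Idi1 fell by 1.08 ± 0.08 after dexamethasone (2.12-fold, adjusted p = 2.73e-05), rose by 0.49 ± 0.08 after AICAR (adjusted p = 0.00477) and rose by 0.96 ± 0.08 after both (1.94-fold, adjusted p = 3.31e-05). Acat2, the cytosolic thiolase that joins the first acetyl units, read 8.26 and 8.18 in vehicle, 7.32 and 7.35 after dexamethasone, 9.09 and 9.19 after AICAR, and 8.61 and 8.67 after both. Here the arrays with both agents lay between vehicle and AICAR alone. Acat2 fell by 0.88 ± 0.08 after dexamethasone and rose by 0.92 ± 0.08 after AICAR and by 0.42 ± 0.08 after both.

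Mvk, which phosphorylates mevalonate, differed from most of the enzymes in its response to dexamethasone. It read 7.55 and 7.52 in vehicle, 7.40 and 7.41 after dexamethasone, 8.24 and 8.39 after AICAR, and 8.27 and 8.13 after both. Its change after dexamethasone did not pass (-0.13 ± 0.08, adjusted p = 0.346), and it rose after AICAR (0.78 ± 0.08) and after both (0.67 ± 0.08). Pmvk, the next kinase, fell after dexamethasone (-0.73 ± 0.08) and rose after AICAR (0.34 ± 0.08, adjusted p = 0.0256). With both agents Pmvk was within error of vehicle (-0.02 ± 0.08, adjusted p = 0.909). Mvd, the decarboxylase, fell after dexamethasone (-0.38 ± 0.10, adjusted p = 0.0314) and rose after AICAR (0.69 ± 0.10) and after both (0.49 ± 0.10). The calls that ended without 1 array were those of Mvd after dexamethasone (adjusted p = 0.173 without vehicle replicate 2, 0.151 and 0.0504 without dexamethasone replicate 1 and 2, and 0.0555 when only the compared groups were fitted), Mvd after both (0.0504 without combination replicate 1) and Pmvk after AICAR. Pmvk lost its AICAR call without vehicle replicate 1 or 2 (adjusted p = 0.0864 and 0.106) and without AICAR replicate 1 or 2 (0.0867 and 0.121), and when only the compared groups were fitted (0.053).

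The next steps join isoprene units into squalene and close the ring. Sqle, the epoxidase that commits squalene to sterols, read 8.00 and 7.94 in vehicle, 7.23 and 7.29 after dexamethasone, 8.67 and 8.70 after AICAR, and 9.12 and 9.15 after both. As with Idi1, no groups overlapped and the combination was highest. Sqle fell by 0.71 ± 0.07 after dexamethasone (1.64-fold), rose by 0.71 ± 0.07 after AICAR and rose by 1.17 ± 0.07 after both (2.24-fold, adjusted p = 6.9e-06). Lss, which closes squalene epoxide to lanosterol, kept the same order of groups: 7.24 and 7.24 in vehicle, 6.79 and 6.95 after dexamethasone, 7.69 and 7.78 after AICAR, and 8.20 and 8.08 after both. It changed by -0.37 ± 0.08, 0.49 ± 0.08 and 0.90 ± 0.08 against vehicle in those treated groups, all 3 called. The call for dexamethasone was lost when vehicle replicate 1 or 2 was left out (adjusted p = 0.069 and 0.0699) or dexamethasone replicate 1 (0.0873), and that for AICAR without AICAR replicate 2 (0.051).

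Fdps makes farnesyl diphosphate, the branch point to sterols and protein prenylation. Its arrays read 11.14 and 11.15 in vehicle, 10.26 and 10.37 after dexamethasone, 11.98 and 12.03 after AICAR, and 11.70 and 11.67 after both. Fdps fell by 0.83 ± 0.07 after dexamethasone and rose by 0.86 ± 0.07 after AICAR and by 0.54 ± 0.07 after both. Fdft1, which makes squalene, fell by 0.98 ± 0.08 after dexamethasone (1.98-fold) and rose by 0.44 ± 0.08 after AICAR. After both it did not pass (-0.13 ± 0.08, adjusted p = 0.295), although both arrays (9.92 and 9.91) lay below both vehicle arrays (10.05 and 10.04). For Fdft1 the AICAR call was lost when vehicle replicate 1 or 2 (adjusted p = 0.05 and 0.0504) or AICAR replicate 2 (0.0587) was left out. Ggps1, which serves the side branch to geranylgeranyl groups, was the 1 gene of the 25 with no call in any of the 6 comparisons, with levels from 5.63 to 5.91 on all 8 arrays.

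**Figure D2:**
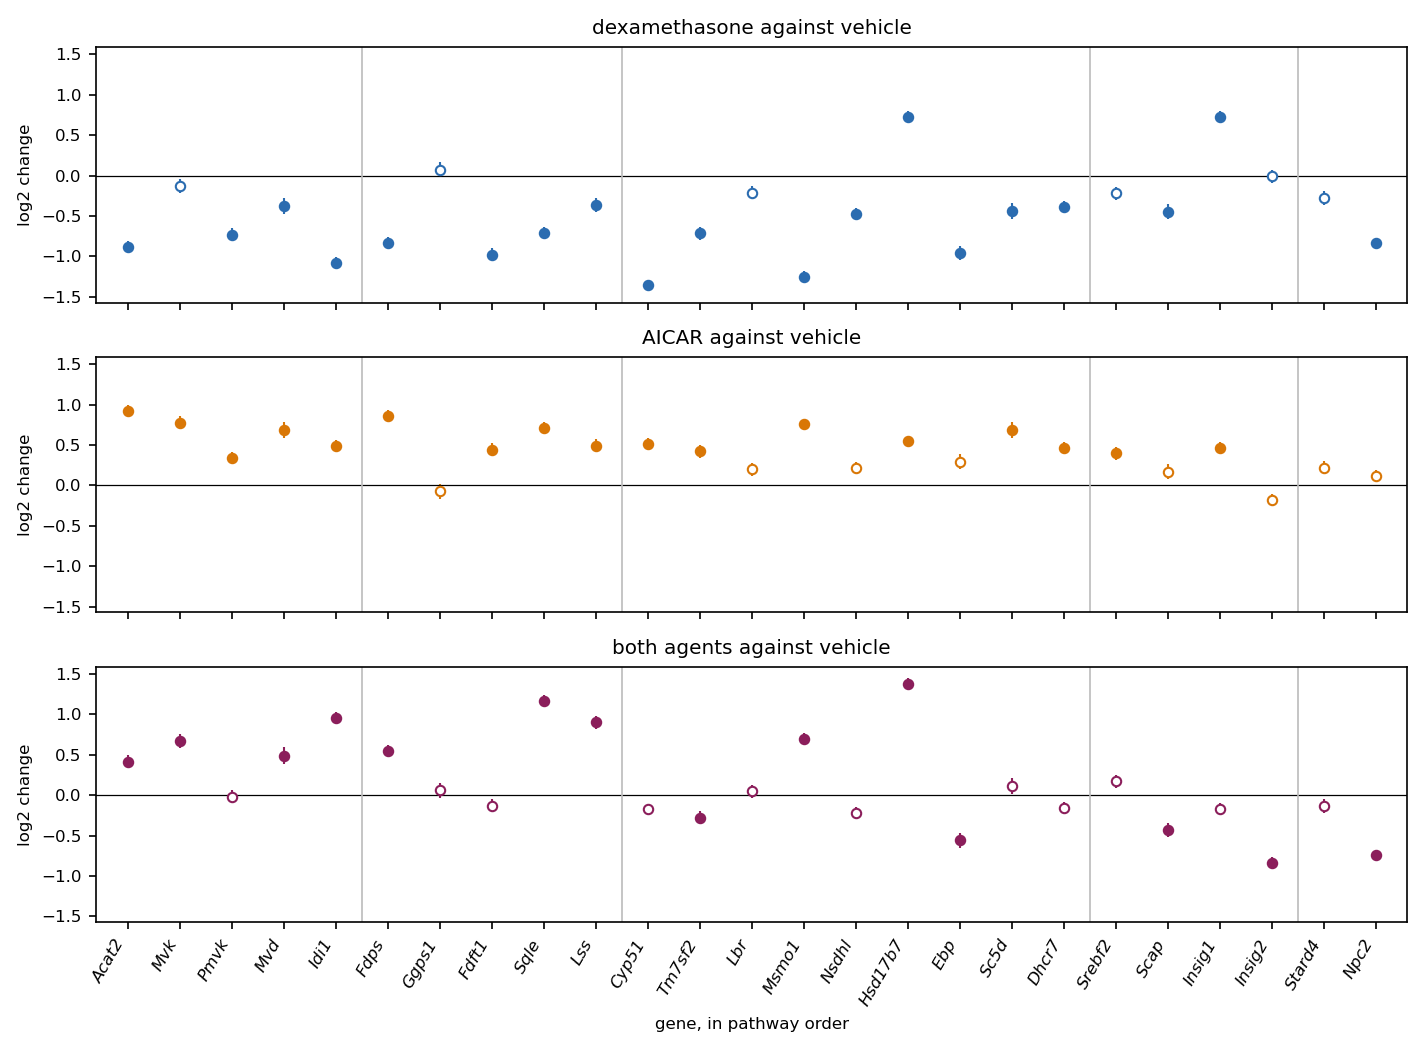
Log2 changes of each gene against vehicle after dexamethasone, AICAR and both agents, with genes in pathway order; points are limma estimates, bars are standard errors, and filled points passed an adjusted p under 0.05. The lowest panel shows both signs, from 1.38 for Hsd17b7 to -0.84 for Insig2.

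After lanosterol the ring is demethylated and its double bonds are moved. Cyp51, the lanosterol demethylase, had the deepest fall of the 25 genes after dexamethasone. It read 11.61 and 11.60 in vehicle, 10.22 and 10.27 after dexamethasone, 12.15 and 12.09 after AICAR, and 11.45 and 11.42 after both. The fall after dexamethasone was 1.36 ± 0.07 (2.57-fold, adjusted p = 4.72e-06) and the rise after AICAR 0.51 ± 0.07. With both agents Cyp51 did not pass against vehicle (-0.17 ± 0.07, adjusted p = 0.104), although both arrays lay below both vehicle arrays, and it passed as lower under cyclic loess scaling (adjusted p = 0.0347) and with a trended robust prior (0.00116). Msmo1, the sterol C4 methyl oxidase, began in the same way and ended elsewhere. It read 10.99 and 10.93 in vehicle, 9.69 and 9.71 after dexamethasone, 11.72 and 11.71 after AICAR, and 11.70 and 11.63 after both. Msmo1 fell by 1.26 ± 0.07 after dexamethasone (2.39-fold) and rose by 0.76 ± 0.07 after AICAR and by 0.70 ± 0.07 after both.

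Hsd17b7, the 3-ketosteroid reductase of the C4 demethylation complex, was the 1 enzyme of the route that rose after dexamethasone. Its arrays read 8.49 and 8.48 in vehicle, 9.20 and 9.23 after dexamethasone, 9.03 and 9.03 after AICAR, and 9.86 and 9.87 after both. The rises were 0.73 ± 0.07 after dexamethasone (adjusted p = 1.39e-04), 0.55 ± 0.07 after AICAR and 1.38 ± 0.07 after both (2.60-fold, adjusted p = 1.93e-06). Every treated array was above both vehicle arrays, and those with both agents were above all others.

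Ebp, the sterol isomerase, stayed low when the agents were combined. It read 10.47 and 10.40 in vehicle, 9.37 and 9.58 after dexamethasone, 10.75 and 10.71 after AICAR, and 9.95 and 9.81 after both. Ebp fell by 0.96 ± 0.09 after dexamethasone and by 0.56 ± 0.09 after both (adjusted p = 0.00207). Its change after AICAR alone did not pass (0.29 ± 0.09, adjusted p = 0.0729). That change passed under cyclic loess (adjusted p = 0.0325), centring (0.041) and the trended robust prior (0.00159). It also passed in the fit on gene means (0.0469), where its value was unchanged because Ebp has only 1 probe set. Tm7sf2, a C14 sterol reductase, fell after dexamethasone (-0.71 ± 0.08), rose after AICAR (0.42 ± 0.08, adjusted p = 0.013) and was lower after both (-0.28 ± 0.08, adjusted p = 0.0339). Its AICAR call was lost when any vehicle array (adjusted p = 0.0703 and 0.0501) or AICAR array (0.0716 and 0.0613) was left out. Its call after both ended without any 1 array other than those given dexamethasone alone (adjusted p = 0.0808 and 0.14 without vehicle replicate 1 and 2, 0.0523 without either AICAR array, 0.0864 and 0.168 without combination replicate 1 and 2).

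Lbr, a nuclear membrane protein with the same reductase activity, did not pass against vehicle in any group (-0.21 ± 0.08 after dexamethasone, 0.20 ± 0.08 after AICAR, 0.05 ± 0.08 after both). Nsdhl, which removes the C4 carboxyl group, fell after dexamethasone (-0.48 ± 0.07) and did not pass after AICAR (0.22 ± 0.07, adjusted p = 0.0878) or both (-0.22 ± 0.07, adjusted p = 0.0564). Cyclic loess carried both Nsdhl values past the threshold (adjusted p = 0.0423 and 0.0195), as did the trended robust prior (5.01e-04 and 2.11e-04). Dhcr7, the last reductase of the route, fell by 0.39 ± 0.07 after dexamethasone, rose by 0.46 ± 0.07 after AICAR and did not pass after both (-0.16 ± 0.07, adjusted p = 0.158, and 0.0168 with the trended robust prior). Sc5d, the C5 desaturase, fell after dexamethasone (-0.44 ± 0.10, adjusted p = 0.0147), rose after AICAR (0.69 ± 0.10) and did not pass after both (0.12 ± 0.10). Its dexamethasone call was lost when vehicle replicate 1 (adjusted p = 0.0829) or dexamethasone replicate 2 (0.088) was left out, and its other probe sets differ, as given further on.

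Among the sensing genes, Insig1 read 10.18 and 10.13 in vehicle, 10.85 and 10.91 after dexamethasone, 10.61 and 10.63 after AICAR, and 10.01 and 9.96 after both. Each agent alone raised it, by 0.72 ± 0.07 (adjusted p = 1.87e-04) and 0.47 ± 0.07 (adjusted p = 0.00456), yet the arrays with both agents were the lowest of the 8. Against vehicle that last difference did not pass (-0.17 ± 0.07, adjusted p = 0.124), and it passed under cyclic loess (-0.21, adjusted p = 0.0434) and with the trended robust prior (0.00601). Insig2 read 11.95 and 11.85 in vehicle, 11.84 and 11.94 after dexamethasone, 11.72 and 11.71 after AICAR, and 11.03 and 11.09 after both. Vehicle and dexamethasone arrays overlapped, and the combination was lower than vehicle (-0.84 ± 0.08, 1.79-fold, adjusted p = 7.08e-05). AICAR alone did not pass (-0.18 ± 0.08, adjusted p = 0.159), but did with the trended robust prior (0.00338) and with the mean over probe sets (0.0199). The other Insig2 probe set, nearly as bright (mean level 11.48 beside 11.64), was called lower after AICAR (-0.33 ± 0.07, adjusted p = 0.018). It read 11.73 and 11.74 in vehicle and 11.40 and 11.42 after AICAR, so the call depends on the probe set chosen.

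Srebf2 read 7.89 and 7.80 in vehicle, 7.55 and 7.69 after dexamethasone, 8.23 and 8.25 after AICAR, and 8.06 and 7.98 after both. The rise after AICAR passed (0.40 ± 0.08, adjusted p = 0.0158), and the values after dexamethasone (-0.22 ± 0.08, adjusted p = 0.102) and both (0.18 ± 0.08, adjusted p = 0.157) did not, although the former did with the trended robust prior (0.0259). Its AICAR call was lost when vehicle replicate 2 (adjusted p = 0.0851) or AICAR replicate 1 or 2 (0.0767 and 0.0748) was left out. Scap, the escort of SREBP-2, fell after dexamethasone (-0.45 ± 0.09) and after both (-0.43 ± 0.09), and did not pass after AICAR (0.17 ± 0.09, adjusted p = 0.258). The former call was lost when vehicle replicate 2 (adjusted p = 0.0572) or dexamethasone replicate 1 (0.0545) was left out, and the latter when combination replicate 2 was (0.0609).

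**Figure D3:**
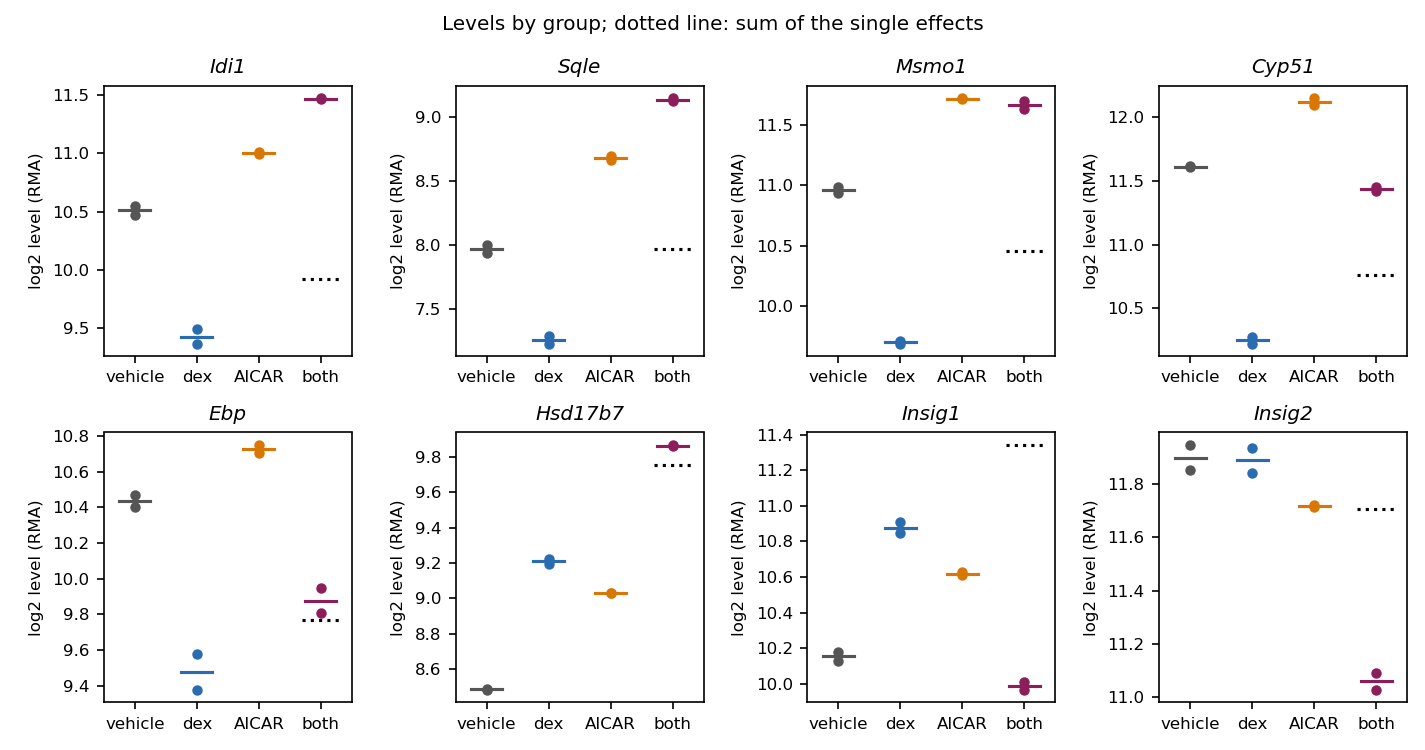
Log2 levels of 8 genes on each array (points) with group means (bars), drawn on separate y axes that do not start at 0; dex is dexamethasone. Dotted lines give the level that the sum of the single effects would place in the combination: Idi1, Sqle, Msmo1 and Cyp51 lie above it, Insig1 and Insig2 below it, and Ebp and Hsd17b7 close to it.

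Of the transport genes, Npc2, which binds cholesterol inside lysosomes, split the arrays by dexamethasone. It read 10.32 and 10.29 in vehicle, 9.46 and 9.46 after dexamethasone, 10.39 and 10.45 after AICAR, and 9.58 and 9.54 after both. The falls were 0.84 ± 0.07 after dexamethasone (1.79-fold, adjusted p = 7.62e-05) and 0.74 ± 0.07 after both (adjusted p = 8.74e-05), and AICAR alone did not pass (0.12 ± 0.07, adjusted p = 0.309). Npc2 is also abundant in macrophages, whose markers fell on the same arrays as given at the end. Stard4, a soluble carrier of cholesterol, did not pass against vehicle after dexamethasone (-0.28 ± 0.08, adjusted p = 0.0509), AICAR (0.22 ± 0.08) or both (-0.13 ± 0.08). It passed after dexamethasone with dim probe sets removed (adjusted p = 0.0354), the trended robust prior (0.00601) and the mean over probe sets (0.0317). After AICAR it passed with that prior (0.036) and that mean (0.0163), and after both with that mean (0.0231).

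The combination was next set against each agent alone, which asks what 1 agent did in the presence of the other. Against dexamethasone, 18 of the 25 genes were higher and 2 lower, beside 10.2% and 9.91% of all probe sets, with a median of 0.56 beside 0.00. All 5 mevalonate enzymes, 4 of 5 genes of the squalene group and 8 of 9 post-lanosterol enzymes were among those that rose. Idi1 rose by 2.04 ± 0.08 (4.10-fold, adjusted p = 8.03e-07), Msmo1 by 1.96 ± 0.07 (3.89-fold), Sqle by 1.88 ± 0.07 (3.67-fold), Fdps by 1.38 ± 0.07 and Acat2 by 1.30 ± 0.08. Smaller rises were those of Srebf2 (0.40 ± 0.08), Ebp (0.40 ± 0.09), Lbr (0.26 ± 0.08, adjusted p = 0.0489) and Nsdhl (0.26 ± 0.07, adjusted p = 0.0357). Insig1 (-0.89 ± 0.07) and Insig2 (-0.83 ± 0.08) were the 2 that fell, a share close to the 9.91% of all probe sets. Of the 14216 named genes, 1995 were higher and 1611 lower. The calls of Lbr and Nsdhl ended under cyclic loess (adjusted p = 0.0538 and 0.0709). Lbr also lost its call without any 1 of the 8 arrays (adjusted p from 0.0562 to 0.22), Nsdhl without any 1 other than dexamethasone replicate 2 (0.0515 to 0.154), Ebp without dexamethasone replicate 1 or combination replicate 1 (0.0819 and 0.114), and Srebf2 without the same arrays (0.0523 and 0.0727).

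Against AICAR alone, 15 of the 25 genes were lower, beside 14.9% of all probe sets, with a median of -0.36 beside -0.01. Another 4 were higher, a share close to the 15.9% of all probe sets. Of the 14216 named genes, 2660 were higher and 2764 lower. The 4 that rose were Hsd17b7 (0.83 ± 0.07, adjusted p = 3.62e-05), Idi1 (0.47 ± 0.08), Sqle (0.46 ± 0.07) and Lss (0.41 ± 0.08, adjusted p = 0.00596, and 0.0524 without combination replicate 1). The deepest falls were those of Npc2 (-0.86 ± 0.07), Ebp (-0.85 ± 0.09), Tm7sf2 (-0.70 ± 0.08), Cyp51 (-0.69 ± 0.07), Insig2 (-0.66 ± 0.08), Insig1 (-0.63 ± 0.07) and Dhcr7 (-0.62 ± 0.07). Msmo1 (-0.05 ± 0.07, adjusted p = 0.613), Mvk (-0.11 ± 0.08) and Mvd (-0.20 ± 0.10) did not pass. The falls of Fdps (-0.32 ± 0.07), Pmvk (-0.36 ± 0.08) and Stard4 (-0.35 ± 0.08) ended without 1 array: without AICAR replicate 2 (adjusted p = 0.0627 and 0.0553 for Fdps and Pmvk) or combination replicate 2 (0.0639 and 0.0637), and for Stard4 without AICAR replicate 1 or combination replicate 1 (0.0858 and 0.0862).

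The interaction tests whether the dexamethasone effect with AICAR differs from that without it. It was positive and called for 8 of 25 genes and negative for 2, beside 8.63% and 7.02% of all probe sets, with a median of 0.06 beside -0.01. Of the 14216 named genes, 1696 were called positive and 1145 negative. The 2 negative sterol genes are a share close to both backgrounds. Idi1 had the largest interaction, 1.55 ± 0.11 (adjusted p = 5.09e-05): the single effects sum to a level of 9.92, and the arrays with both agents averaged 11.47. Msmo1 followed with 1.20 ± 0.10 (a sum of 10.46 against 11.66 measured) and Sqle with 1.17 ± 0.10 (7.97 against 9.14). For Lss the interaction was 0.78 ± 0.12, for Cyp51 0.67 ± 0.10 and for Fdps 0.51 ± 0.10 (adjusted p = 0.012, and 0.0506 without combination replicate 1).

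In the other direction, Insig1 gave -1.36 ± 0.10 (adjusted p = 7.19e-05), with a sum of 11.34 against 9.99 measured. Insig2 gave -0.65 ± 0.11 (adjusted p = 0.00485; 11.71 against 11.06). Hsd17b7, which rose with each agent, was near the sum of the single effects (0.11 ± 0.10, adjusted p = 0.506; 9.76 against 9.87), and passed with the mean over probe sets (0.47, adjusted p = 0.00702). Pmvk just missed the threshold (0.38 ± 0.11, adjusted p = 0.0514) and passed with dim probe sets removed (0.0338) and the trended robust prior (0.00425). It also passed in the fit on gene means (0.0244), where its value was unchanged because Pmvk has only 1 probe set. Without dexamethasone replicate 2 its value was 0.44. Also near the sum were Mvk (0.02 ± 0.12), Tm7sf2 (0.02 ± 0.12), Npc2 (-0.02 ± 0.10), Nsdhl (0.04 ± 0.10), Ebp (0.11 ± 0.13) and Srebf2 (0.00 ± 0.12), none of which passed. Dhcr7 did not pass (-0.23 ± 0.105, adjusted p = 0.184), but was called negative under cyclic loess (-0.35, adjusted p = 0.0489) and with the trended robust prior (0.0201). Stard4 did not pass (-0.07 ± 0.12, adjusted p = 0.738), but was called negative with the mean over probe sets (-0.29, adjusted p = 0.048). The calls of Acat2 (0.38 ± 0.11, adjusted p = 0.0449) and Fdft1 (0.41 ± 0.11, adjusted p = 0.0406) ended under cyclic loess (0.123 and 0.0934), with the replicate block (0.0613 and 0.0504) and without most single arrays (0.0638 to 0.144 for Acat2 without any 1 array, and 0.0762 to 0.123 for Fdft1 without any 1 other than dexamethasone replicate 2). Without combination replicate 1 the count of positive interactions was 5 in place of 8.

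**Figure D4:**
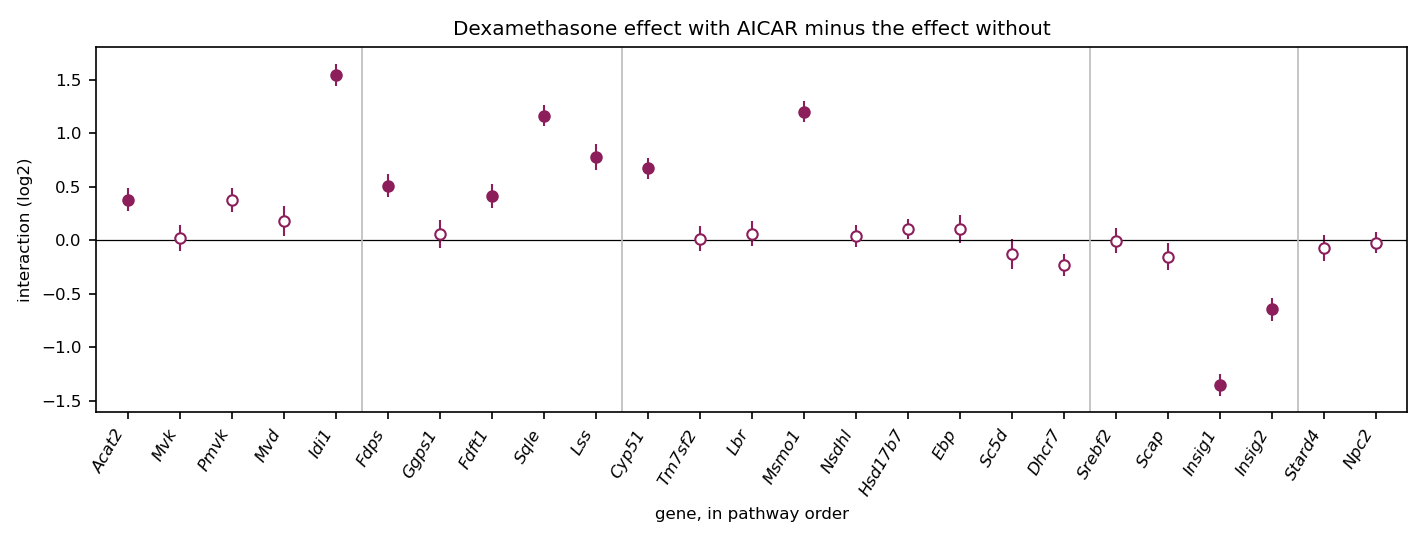
The interaction of each gene (log2, limma estimate with standard error), in pathway order; filled points passed an adjusted p under 0.05. Idi1, Msmo1 and Sqle lie above 1 and Insig1 below -1, while most later enzymes lie close to 0.

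A further 17 probe sets measured 13 of the genes again. Over 6 comparisons their call matched that of the chosen probe set in 80 of 102 cases, differed by passing or not in 21 and was opposite in 1. The other Idi1 and Cyp51 probe sets gave the same calls throughout. Sc5d was the gene whose probe sets had opposite calls. The chosen one and a second one were higher after AICAR (0.69 ± 0.10 and 0.59 ± 0.08), whereas the last of the 3 was lower: it read 10.02 and 9.99 in vehicle, 8.92 and 8.89 after dexamethasone, 9.36 and 9.28 after AICAR, and 9.24 and 9.27 after both (-0.68 ± 0.07 after AICAR, adjusted p = 7.43e-04). After both agents that last one (-0.75 ± 0.07) and the second (-0.44 ± 0.08) were below vehicle and the chosen one was not, so no single direction can be given for Sc5d there. For Hsd17b7 the other probe set was called for the interaction (0.83 ± 0.13, adjusted p = 0.00397; 6.54 and 6.65 in vehicle, 7.20 and 7.05 after dexamethasone, 6.88 and 7.06 after AICAR, 8.31 and 8.36 after both), so the combination reads above the sum on 1 probe set and near it on the other. A second Stard4 probe set was lower after dexamethasone (-0.46 ± 0.09) and both (-0.49 ± 0.09) and higher after AICAR (0.36 ± 0.09).

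**Figure D5:**
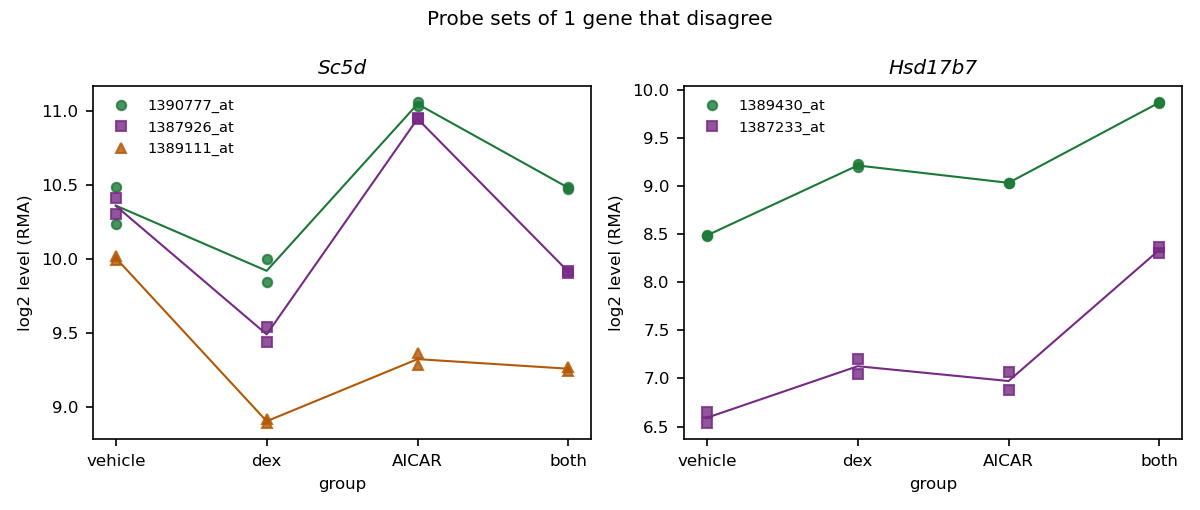
Log2 levels of the probe sets of Sc5d and of Hsd17b7 on each array (points) with lines through group means; colours are probe sets and the y axes do not start at 0. For Sc5d the lowest probe set (triangles) falls after AICAR while the others rise, and for Hsd17b7 both rise after both agents.

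Genes that neighbour the route were taken from a list of 26, of which 22 had a probe set. After dexamethasone 2 rose and 6 fell (8.67% and 9.77% of all probe sets), after AICAR 5 rose and 3 fell (5.45% and 7.47%), and after both 3 rose and 9 fell (13.3% and 13.6%). The combination had 3 higher and 4 lower against dexamethasone (10.2% and 9.91%), 4 higher and 13 lower against AICAR (15.9% and 14.9%), and 3 positive and 8 negative interactions (8.63% and 7.02%). The 2 that rose after dexamethasone and the 3 that rose after both are shares close to those of all probe sets. Por, the electron donor of Cyp51 and Sqle, opposed them after dexamethasone: it read 7.91 and 8.02 in vehicle, 9.68 and 9.96 after dexamethasone, 8.39 and 8.49 after AICAR, and 9.21 and 9.18 after both (1.85 ± 0.10 after dexamethasone, adjusted p = 6.47e-06; interaction -1.10 ± 0.14). Acss2, which makes cytosolic acetyl-CoA from acetate, fell after dexamethasone (-0.51 ± 0.07), rose after AICAR (0.59 ± 0.07) and fell after both (-0.72 ± 0.07; interaction -0.80 ± 0.10). Nceh1, a hydrolase of cholesteryl esters, rose after both (1.07 ± 0.12). Abca1, the exporter of cholesterol to HDL, fell after AICAR (-0.27 ± 0.07) and after both (-0.89 ± 0.07). Mylip, a sterol-induced ubiquitin ligase, fell in all 3 treated groups (-0.63 ± 0.09, -0.43 ± 0.09 and -0.80 ± 0.09). Nr1h2, the sterol receptor LXR-beta, rose after AICAR (0.73 ± 0.09) and fell after both (-0.29 ± 0.09, adjusted p = 0.0465).

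Several measures of the whole samples moved with the groups. Arrays of 1 group correlated at 0.997 to 0.998 over probe sets and arrays of different groups at 0.979 to 0.993. The spread within groups had a median of 0.10 (log2 SD) over all probe sets and 0.06 over the 25 genes. The 3′ minus 5′ difference of the actin control, a measure of RNA quality, averaged 2.23 on vehicle arrays and 2.04 on dexamethasone arrays, and it was 1.82 with AICAR and 1.804 with the combination, and its part in the results was not tested. Hepatocyte markers were high on every array (mean log2 level of 7 of 8 markers from 13.84 to 13.99). Of 8 Kupffer cell markers with a probe set, of 11 listed, 7 were lower after dexamethasone, 3 were higher and 1 lower after AICAR, and 8 were lower after both. Their mean level was 8.63 in both vehicle arrays, 7.46 and 7.63 after dexamethasone, 8.82 and 8.80 after AICAR, and 4.13 and 4.24 after both. Cd5l, a defining marker, read 3.10 and 3.15 after both, under the lower quartile of every array (3.84). Against vehicle, the 5 sinusoidal endothelial markers had 4, 1 and 4 lower and 0 higher after dexamethasone, AICAR and both. In the same order the 7 lymphocyte markers had 4, 1 and 5 lower and the 3 erythroid markers 2, 1 and 2 lower, with 0 higher. The 7 stellate and fibroblast markers had 1, 6 and 3 higher and 2, 0 and 2 lower, and the 4 cholangiocyte markers 0, 1 and 1 higher and 0, 1 and 0 lower. Among all probe sets 8.67%, 5.45% and 13.3% were higher and 9.77%, 7.47% and 13.6% lower. The part of these cells in the values above, Npc2 included, was not tested. In whole liver, fewer cells of a type and less RNA per cell cannot be told apart.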

How the data were processed

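Expression was measured in rat liver on 8 Affymetrix arrays. The values are log2 levels that the authors computed with RMA (affy package), per the submitters' processing notes; no versions are named there. RMA removes background, gives all arrays one distribution and summarises probe sets, and it compresses changes of dim ones. The log base was read from the range of 1.96 to 14.7.

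From these, 57 array controls were removed and 31042 probe sets were fitted with limma 3.58.1 in R 4.3.3, over all 8 arrays with a coefficient for each group. Variances were moderated (residual df 4, prior df 4.58), p-values were adjusted by Benjamini-Hochberg over all probe sets, and calls were made below 0.05. An exact permutation test of 2 against 2 cannot go below 0.333 and was not used. Names came from platform annotation, for probe sets with 1 symbol; all 25 genes matched GRCr8 by gene ID, and every one is reported. The genes and lists were chosen with earlier results of these data known. The code was tested on simulated data.

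Results were recomputed with dim probe sets removed, a trended robust prior, the compared groups alone, a replicate block, cyclic loess, centring on brighter probe sets, gene means, a 2-fold minimum and each array left out. Promoter windows are RefSeq's, GRCr8.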

Additional observations from a re-analysis of the deposited data

Results flagged for a closer look

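For 10 genes the dexamethasone effect differed between arrays with and without AICAR, by the interaction term of the limma fit with Benjamini-Hochberg adjustment. It was positive for Idi1 (1.55 ± 0.11), Msmo1 (1.20 ± 0.10), Sqle (1.17 ± 0.10), Lss (0.78 ± 0.12), Cyp51 (0.67 ± 0.10), Fdps (0.51 ± 0.10), Fdft1 (0.41 ± 0.11) and Acat2 (0.38 ± 0.11). Negative values were found for Insig1 (-1.36 ± 0.10) and Insig2 (-0.65 ± 0.11). Adjusted p-values ran from 5.09e-05 for Idi1 to 0.0449 for Acat2, and those of Acat2 and Fdft1 did not hold under other scaling.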

How the results depend on the processing

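Over 25 genes and 6 comparisons, 2093 of 2225 recomputed gene results kept their direction and side of the threshold, counting a change of sign without a call as kept; 91 lost a call, 40 gained one and 1 reversed. The reversal was Sc5d after both agents, at -0.36 in place of 0.12 when its probe sets were averaged, where its probe sets disagree. For the counts of sterol genes, a minimum of 2-fold left 0 higher and 3 lower after dexamethasone and 0 higher after AICAR. With both agents it left 2 higher and 0 lower against vehicle, 7 and 0 against dexamethasone, 0 and 0 against AICAR, and 3 positive and 1 negative interaction. Sterol genes lower after both agents numbered 5, and 9 with a trended robust prior, 8 with cyclic loess, 8 with gene means, and 3 to 5 with 1 array left out. After AICAR 1 was lower with the trended prior and 1 with gene means; both times it was Insig2. Positive interactions numbered 5 to 8 with 1 array left out. The fit of only the compared groups was not run for the interaction. A lone array left in a group was assumed to vary like the others. The cause of these shifts was not tested. Same-numbered arrays shared little deviation (r from -0.0418 to 0.16 between groups, the highest for vehicle with dexamethasone). With 2 arrays in each group these values cannot show whether the numbers pair the arrays. With the replicate block 16 genes were above dexamethasone alone in place of 18, and 6 interactions were positive in place of 8. Centring moved the share of all calls that were higher from 47% to 57.6% after dexamethasone, from 42.2% to 56.1% after AICAR and from 55.1% to 44% for the interaction.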
